A study of Saccharomyces cerevisiae with 5 samples.

Results

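Transcript levels of the histone genes of budding yeast, Saccharomyces cerevisiae, were examined on 5 two-colour arrays that set total RNA against genomic DNA. The histone genes were taken by name and not by level: HTA1, HTA2, HTB1, HTB2, HHT1, HHT2, HHF1 and HHF2, which encode the core histones, HTZ1, which encodes the H2A variant H2A.Z, and HHO1, which encodes the linker histone H1. All 10 were found among the 6256 genes on the arrays. The arrays form 1 group. Each compared RNA of mid-log cells grown at 30 °C with genomic DNA, both from the strain that the labels spell Sigma 1287b, L5366, and no mutation, treatment or other condition was set against it. RNA carried Cy3 and genomic DNA Cy5 on every array, so a dye effect is part of every ratio. Arrays 4 and 5 were scanned in session 2 and arrays 1 to 3 in session 1. The study's methods describe biological replicates, fewer of them than there are arrays here, and the labels do not say which arrays came from separate cultures. The spread between arrays may therefore be technical in part.

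Histones package DNA into nucleosomes, each an octamer of H2A, H2B, H3 and H4 wrapped by DNA. Yeast keeps each core histone on a pair of gene copies, arranged so that an H2A gene and an H2B gene, or an H3 gene and an H4 gene, are transcribed in opposite directions from a shared promoter region. Transcription of the core genes is confined largely to the time of DNA replication. The cultures were a mixture of all cell cycle phases, so fewer cells in S phase and less RNA per cell cannot be told apart. H2A.Z replaces H2A in nucleosomes near many promoters, and Hho1 binds DNA outside the nucleosome core.

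The level of a gene is given as log2 of its RNA signal over its genomic DNA signal, after quantile normalization between arrays and relative to the median gene, which stands at 0. The genomic DNA divisor puts different genes on a common scale without a correction for length. Each gene had 1 probe printed as 7 spots. All 350 spots of the histone genes were well above background in both channels, none was saturated, and 344 entered the levels after 6 with an outlier flag were left out. Array medians were 1425 to 2038 intensity units in Cy3 and 11396 to 13043 in Cy5 over all genes, and arrays correlated at 0.992 to 0.998 across genes.

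In the levels used here the 8 core histone genes stood at percentiles between 93.9 and 97.2 of all genes, HHO1 at percentile 79.2 and HTZ1 at percentile 63.1. The size of this excess depends on the processing. The core genes spanned percentiles 27.9 to 92.5 with Agilent's processed signals, which the scanner software had background-subtracted and balanced between dyes, and 15.0 to 84.1 with loess, which removes the trend of the ratio with brightness within an array. Brightness includes the RNA signal, so loess can also remove part of the differences in RNA level. The median level of the core genes was 3.67 in the text's processing, against 0.53 with the processed signals and 0.14 with loess. Relative to the median gene, 10 of 10 histone genes were higher by limma (adjusted p between 3.52e-12 and 1.27e-07), where 47.7% of all genes were called higher and 47.6% lower. That count was 9 with normexp, a model-based background correction. It was 8 with Agilent's processed signals, 7 of them core genes, and 5 with loess, 4 of them core genes. Among all 6256 genes, 3005 were called higher with normexp, 2937 with the processed signals and 2844 with loess. The median level of all 10 was 3.53, against 0.00 for all genes. The core genes lay above HTZ1 under each of 11 other ways of processing the same arrays, but above HHO1 in only 4 of 8 cases with Agilent's processed signals and 3 of 8 with loess.

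**Figure D1:**
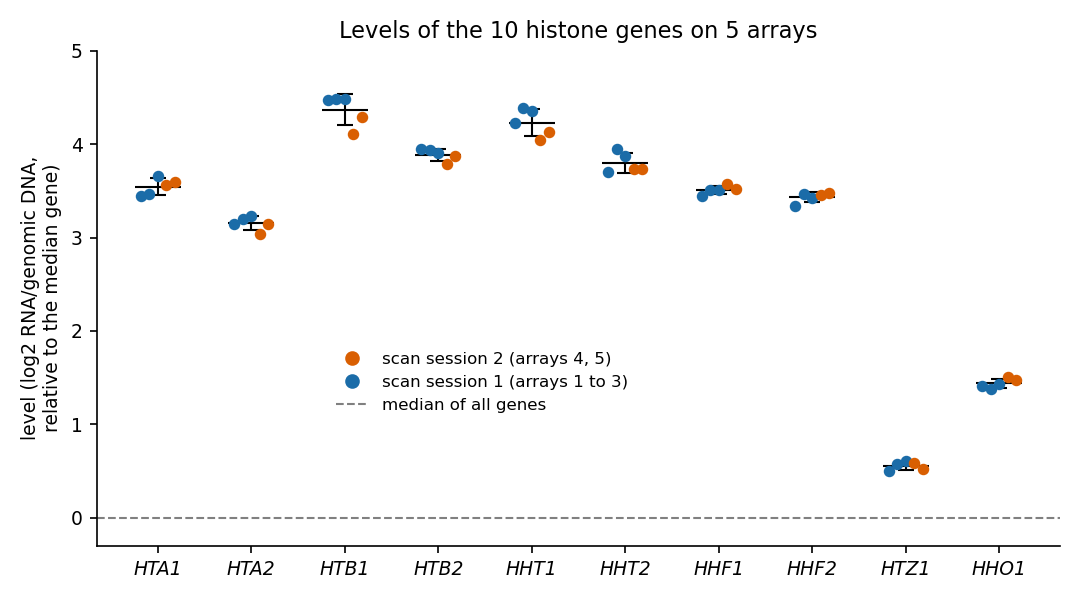
Level of each histone gene on each array, as log2 RNA over genomic DNA relative to the median gene (dashed line), with points coloured by scan session and bars showing the mean ± SD of 5 arrays. The 8 core genes have means between 3.15 and 4.37, HHO1 has a mean of 1.44 and HTZ1 of 0.56.

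HTB1 (YDR224C), an H2B gene, had the highest mean level, a place that HTB2 took with Agilent's processed signals and under loess and HHF1 took with Cy3 alone. It reached 4.47, 4.48, 4.48, 4.11 and 4.29 on arrays 1 to 5. The mean of 4.37 ± 0.17 (SD, n = 5) is 20.6-fold over the median gene, and HTB1 ranked 175 among 6256 genes. That level was 1.02 with the processed signals and 0.62 with loess. HTB2 (YBL002W), the other H2B gene, had levels of 3.95, 3.93, 3.91, 3.79 and 3.87 on the same arrays, with a mean of 3.89 ± 0.06 (14.8-fold over the median gene), beside 1.30 with the processed signals and 0.82 with loess. The ranges of the H2B genes did not overlap.

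HTA1 (YDR225W), an H2A gene, had levels of 3.45, 3.47, 3.65, 3.57 and 3.60 on arrays 1 to 5. Its mean of 3.55 ± 0.09 is 11.7-fold over the median gene, but the level was 0.45 with the processed signals and 0.05 with loess, where it was no longer called (limma adjusted p = 0.251). HTA2 (YBL003C), which encodes the other H2A, was the lowest of the core genes except under normexp, processed signals and loess, where HHF1 was. Its levels were 3.14, 3.20, 3.23, 3.04 and 3.14, with a mean of 3.15 ± 0.07 (8.88-fold over the median gene), beside 0.61 with the processed signals and 0.22 with loess. Every HTA1 value lay above every HTA2 value.

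The H3 gene HHT1 (YBR010W) was second in the order of means. Levels were 4.23, 4.39, 4.36, 4.05 and 4.13, with a mean of 4.23 ± 0.15, or 18.8-fold over the median gene. With the processed signals HHT1 was at 1.03 and with loess at 0.48. HHT2 (YNL031C), the other H3 gene, had levels of 3.70, 3.95, 3.88, 3.73 and 3.73 and a mean of 3.80 ± 0.11 (13.9-fold). It was at 0.20 with the processed signals and at 0.06 with loess, where it was not called (limma adjusted p = 0.344). The lowest HHT1 value was above the highest HHT2 value.

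HHF1 (YBR009C), an H4 gene, had levels of 3.45, 3.51, 3.51, 3.57 and 3.52, a mean of 3.51 ± 0.04. HHF2 (YNL030W), the other H4 gene, had levels of 3.34, 3.47, 3.43, 3.45 and 3.48, a mean of 3.43 ± 0.05. The ranges of the H4 genes overlapped, and the means are 11.4-fold over the median gene for HHF1 and 10.8-fold for HHF2. For HHF1 the level turned to -0.62 with the processed signals and to -0.90 with loess, and for HHF2 to -0.09 with loess.

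HHO1 (YPL127C), the linker histone gene, had levels of 1.41, 1.38, 1.43, 1.50 and 1.48, with a mean of 1.44 ± 0.05, or 2.71-fold over the median gene, beside 0.55 with the processed signals and 0.23 with loess. HTZ1 (YOL012C) had the lowest levels of the histone genes, at 0.50, 0.57, 0.61, 0.58 and 0.52, with a mean of 0.56 ± 0.04 (1.47-fold over the median gene). The sign of the HTZ1 level turned under normexp (-0.02), Agilent's processed signals (-0.67) and loess (-1.09), so its place above the median gene depends on the processing.

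From highest to lowest mean level the order was HTB1, HHT1, HTB2, HHT2, HTA1, HHF1, HHF2, HTA2, HHO1 and HTZ1. Neighbours in this order were taken to differ beyond their spread where the difference had 1 sign on 5 of 5 arrays and the ranges did not overlap. By that rule HHT1 was above HTB2, HHT2 above HTA1, HHF2 above HTA2, HTA2 above HHO1 and HHO1 above HTZ1. These separations are of the quantile-normalized levels. With median centring HHT2 was at 3.79 ± 0.17 and HTA1 at 3.54 ± 0.18, with wider spreads than in those levels. HTB1 was not separated from HHT1, HTB2 from HHT2, HTA1 from HHF1, or HHF1 from HHF2. The order among the core genes was another one under normexp, processed signals, loess and Cy3 alone. Among all 45 pairs of histone genes, 42 kept 1 sign on 5 arrays and 40 had ranges that did not overlap. Pairs of other genes were not counted in this way, so these counts are not read as a trait of the histone genes. The exact two-sided sign-flip permutation test cannot go below p = 0.063 with 5 arrays, or 0.067 after Benjamini-Hochberg adjustment over the 45 pairs, so no pair could pass 0.05 and sizes and signs are given instead.

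**Figure D2:**
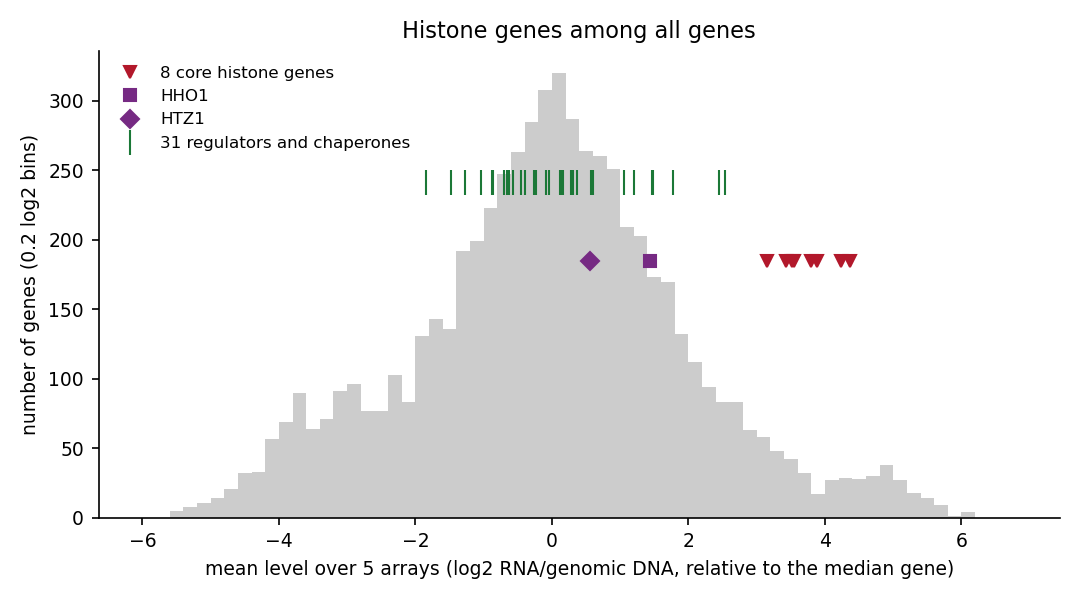
Number of genes (vertical axis, bins of 0.2 log2) by mean level over 5 arrays (horizontal axis) for all 6256 genes, with the core histone genes, HHO1, HTZ1 and 31 genes of histone regulators and chaperones marked at their levels; the height of the marks has no meaning. The core genes lie from 3.15 to 4.37, to the right of all 31 regulators and chaperones, whose highest level is 2.53. The lowest core gene stands at percentile 93.9 of all genes, so most genes of any kind lie to its left. With Agilent's processed signals 8 and with loess 4 of the 31 lie below the lowest core gene.

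The duplicated copies were compared within each array, copy 1 minus copy 2. HTA1 minus HTA2 was 0.31, 0.27, 0.42, 0.53 and 0.46 on arrays 1 to 5, a mean of 0.40 ± 0.11 or 1.32-fold (exact sign-flip permutation p = 0.063, n = 5). HTA1 was thus higher on 5 of 5 arrays, but the mean difference turned to -0.16 with Agilent's processed signals and -0.17 with loess. HTB1 minus HTB2 was 0.53, 0.55, 0.58, 0.32 and 0.42, with a mean of 0.48 ± 0.11 or 1.39-fold (exact permutation p = 0.063, n = 5). This difference was also of 1 sign on 5 arrays and turned to -0.28 with the processed signals and -0.20 with loess.

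HHT1 minus HHT2 was 0.52, 0.44, 0.48, 0.31 and 0.40, with a mean of 0.43 ± 0.08 or 1.35-fold (exact permutation p = 0.063, n = 5). The H3 pair was the one copy pair whose order held under all 11 alternatives, with mean differences between 0.23 for Cy3 alone and 0.83 for Agilent's processed signals. HHF1 minus HHF2 was 0.11, 0.04, 0.09, 0.12 and 0.05, with a mean of 0.08 ± 0.03 or 1.06-fold (exact permutation p = 0.063, n = 5). Although its sign was the same on 5 arrays, the spots of HHF1 and HHF2 overlapped on each of them. The H4 difference turned to -0.42 with normexp, -0.85 with the processed signals and -0.81 with loess, and it was 0.84 with Cy3 alone.

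Expressed as shares of the summed linear ratio of a pair, HTA1 made up 56.8 ± 1.83%, HTB1 58.2 ± 1.79%, HHT1 57.4 ± 1.39% and HHF1 51.4 ± 0.594% (SD, n = 5). With the processed signals these shares were 47.3% for HTA1, 45.2% for HTB1, 64.0% for HHT1 and 35.7% for HHF1. With loess they were 47.0% for HTA1, 46.5% for HTB1, 57.3% for HHT1 and 36.3% for HHF1, and with normexp HHF1 held 42.8%. The copies of a pair have closely related coding sequences. How far the probe of one copy also takes up RNA or DNA of the other was not tested, and each copy difference is uncertain to that extent.

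**Figure D3:**
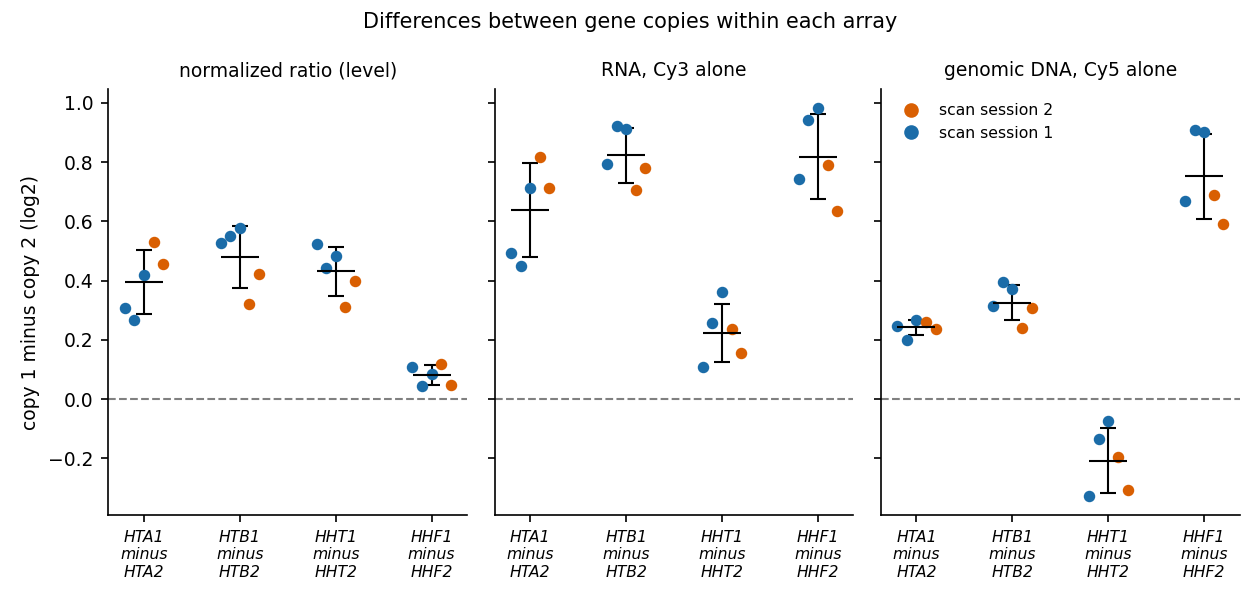
Difference between copy 1 and copy 2 of each core histone within each array, in log2, for the normalized level (left), the Cy3 signal of RNA alone (middle) and the Cy5 signal of genomic DNA alone (right), with points coloured by scan session and bars showing mean ± SD of 5 arrays. The H4 pair differs by 0.82 in RNA and by 0.75 in genomic DNA but by 0.08 in the level, and the sign of the level differences of the H2A, H2B and H4 pairs turns under loess and for the signals processed by Agilent's software.

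Each ratio was taken apart into its signals. In the genomic DNA channel, the divisor of every level, all 10 histone genes had Cy5 signals above the median gene. The excess ranged between 0.11 log2 for HHO1 and 1.52 log2 for HHF1. HHF1 had Cy5 signals of 32771 to 39839 (median 33453), at percentile 98.2 of all genes. Those of HHF2 were 17245 to 24918 (median 21472), and the ranges of the H4 genes did not overlap in this channel.

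The RNA signal of HHF1 was likewise the highest of the 10, at 49978 to 64859 (median 55039), against 25195 to 38308 (median 31272) for HHF2. HHF1 minus HHF2 was 0.82 ± 0.14 log2 in Cy3 and 0.75 ± 0.14 log2 in Cy5. By RNA signal alone HHF1 was first of the histone genes, 5.09 log2 above the median gene, whereas by ratio it was sixth. The other pairs differed less in genomic DNA. In Cy5, HTA1 minus HTA2 was 0.24 log2, HTB1 minus HTB2 0.33 log2 and HHT1 minus HHT2 -0.21 log2. In Cy3 the same differences were 0.64, 0.82 and 0.22 log2.

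**Figure D4:**
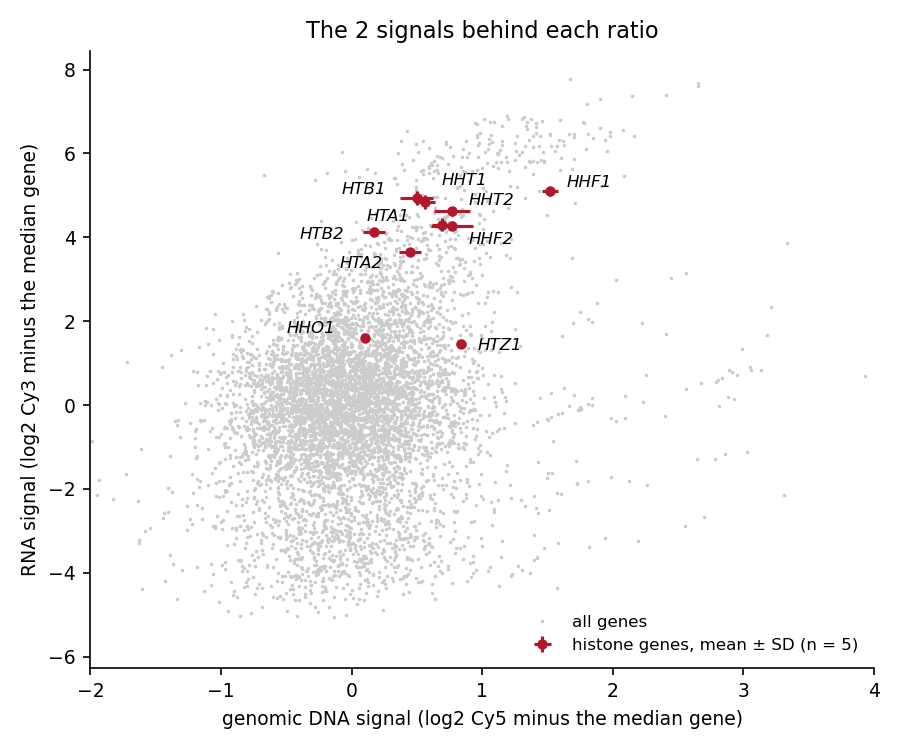
RNA signal (log2 Cy3, vertical axis) against genomic DNA signal (log2 Cy5, horizontal axis), each minus the median gene and averaged over 5 arrays, for all genes (grey points) and the 10 histone genes (red, mean ± SD, n = 5). HHF1 stands to the right of the other histone genes, 1.52 log2 above the median gene in genomic DNA, and highest of them in RNA at 5.09 log2. The horizontal axis runs between -2 and 4, which leaves 76 genes outside it.

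Genes that share a divergent promoter were compared next. At the H2A-H2B loci the H2A gene was the lower partner on 5 of 5 arrays and under all 11 alternatives. HTA1 minus HTB1 was -1.02, -1.02, -0.83, -0.54 and -0.69, with a mean of -0.82 ± 0.21. HTA2 minus HTB2 was -0.81, -0.73, -0.67, -0.75 and -0.73, with a mean of -0.74 ± 0.05. The spread between arrays was wider at the HTA1-HTB1 locus, where HTB1 was lower on arrays 4 and 5 than on arrays 1 to 3. With median centring the SD was 0.09 for HTA1 minus HTB1 and 0.08 for HTA2 minus HTB2. The session difference of HTB1 was then 0.02, so both features depend on the scaling.

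At the H3-H4 loci the H3 gene was the higher partner on 5 of 5 arrays. HHT1 minus HHF1 averaged 0.72 ± 0.17 and lay between 0.48 and 0.88, but turned to -0.25 with Cy3 alone, where the strong genomic DNA signal of HHF1 is not divided out. It was 1.65 with the processed signals and 1.38 with both normexp and loess. HHT2 minus HHF2 averaged 0.36 ± 0.10, between 0.26 and 0.48, and was -0.03 with Agilent's processed signals. Summed over the copies on the linear scale, log2 levels were 4.36 ± 0.06 for H2A, 5.15 ± 0.12 for H2B, 5.03 ± 0.12 for H3 and 4.47 ± 0.05 for H4. The order of these sums also varied with the processing, since H4 had the highest sum with Cy3 alone (5.75, beside 5.75 for H3) and the lowest with normexp (3.71), processed signals (0.87) and loess (0.56).

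HTZ1 was compared with the H2A genes, whose protein it replaces. HTZ1 minus HTA1 was -2.94, -2.89, -3.05, -2.98 and -3.07, with a mean of -2.99 ± 0.07, so HTA1 stood 7.94-fold above HTZ1. HTZ1 minus HTA2 averaged -2.59 ± 0.08. HTZ1 was lower than either H2A gene on 5 of 5 arrays and under all 11 alternatives. Its level amounted to 7.16 ± 0.263% of the summed H2A level (SD, n = 5). That percentage was 21.3% with loess, 21.8% with Agilent's processed signals and 6.26 to 8.62% under the other alternatives.

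HHO1 minus HTZ1 was 0.88 ± 0.06, or 1.84-fold, and the difference was positive under each alternative, between 0.14 for Cy3 alone and 1.48 for normexp. In Cy3 the linker and the variant gene were close, at 1.61 log2 above the median gene for HHO1 and 1.47 for HTZ1. In Cy5 they were apart, at 0.11 for HHO1 and 0.84 for HTZ1, so most of their difference in level lies in the divisor. HHO1 minus HTA2 was -1.71 ± 0.12, but -0.06 with Agilent's processed signals and 0.01 with loess.

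**Figure D5:**
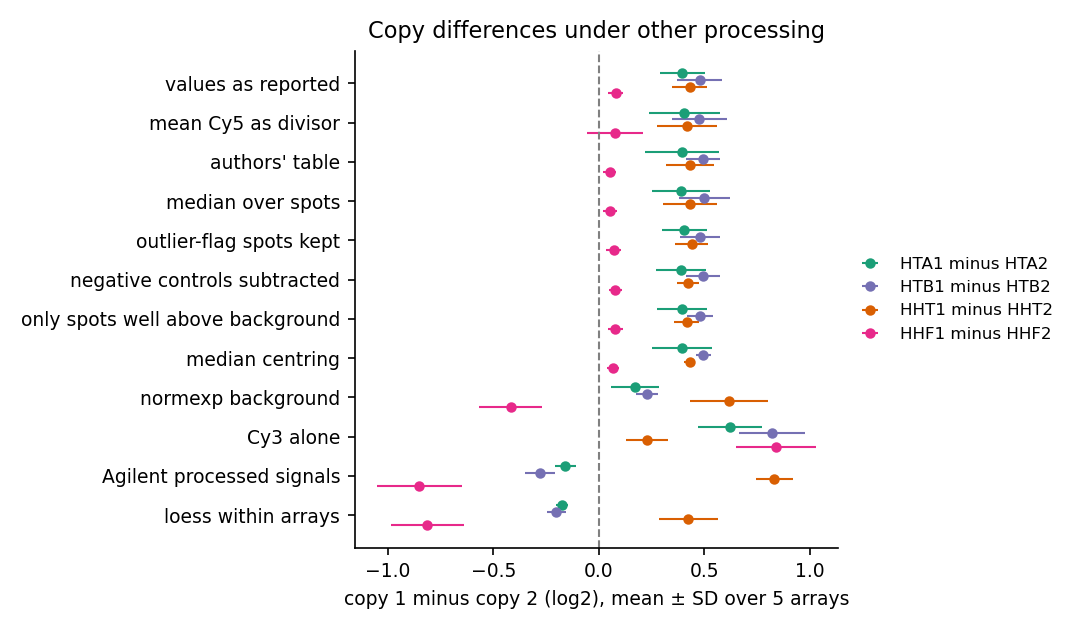
Mean difference between copy 1 and copy 2 (log2, ± SD of 5 arrays) for each core histone under the processing used in the text (top row) and under 11 alternatives. HHT1 minus HHT2 is above 0 in every row, whereas HTA1 minus HTA2 and HTB1 minus HTB2 are below 0 in the rows for Agilent's processed signals and loess, and HHF1 minus HHF2 is below 0 in those rows and for normexp.

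Scan sessions were set against each other as a technical check. Session 2 arrays lay on a slide of their own, so slide and session cannot be told apart. By limma 0 of 10 histone genes differed at an adjusted p of 0.05, where 2.64% of all genes did. At an unadjusted p under 0.05 there were 2, HTB1 and HHT1. The share of all genes at that threshold was not counted, so nothing is read from that count. HTB1 had levels of 4.11 and 4.29 in session 2, against 4.47, 4.48 and 4.48 in session 1, a difference of -0.28 ± 0.07 (SE, limma adjusted p = 0.0757). HHT1 had levels of 4.05 and 4.13 in session 2, against 4.23, 4.39 and 4.36 in session 1, a difference of -0.24 ± 0.07 (SE, limma adjusted p = 0.116). These are the histone genes with the highest levels, and neither overlapped between sessions.

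With arrays centred on the median gene in place of quantile normalization the session differences were 0.02 for HTB1 and 0.05 for HHT1, so their sign depends on the scaling. The other 8 histone genes differed by -0.11 to 0.09 between sessions. With the slide as a random block, 6 histone genes were called and so were 35.8% of all genes. Using only spots well above background, 2 of 10 were called, where 37.5% of all genes were. Copy differences kept their sign when the arrays of each session were quantile-normalized on their own. In that setting HTA1 minus HTA2 averaged 0.51 in session 2 and 0.32 in session 1, and HTB1 minus HTB2 0.45 and 0.52. HHT1 minus HHT2 averaged 0.45 in session 2 and 0.42 in session 1, and HHF1 minus HHF2 0.08 and 0.07. These values differ from those of all 5 arrays normalized together. There HHT1 minus HHT2 was 0.31 and 0.40 in session 2, against 0.52, 0.44 and 0.48 in session 1, so the order of the sessions depends on the normalization.

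The spread between arrays was also compared with that of other genes. The SD of the level ranged between 0.04 and 0.17, and 4 of 10 exceeded the median SD of all genes, 0.08. HTB1 and HHT1 had the widest spread after quantile normalization. With median centring the SD was 0.11 for HTB1 and 0.18 for HTA1, so this order depends on the scaling.

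Genes that control histone transcription or handle histone proteins were taken as a list of 31, all of which were found. In the levels used here 15 were above and 14 below the median gene by limma at an adjusted p of 0.05, and 2 were not called, beside 47.7% higher and 47.6% lower among all genes. The median level of the list was -0.04. The counts above and below were 10 and 18 with the processed signals, and 9 and 21 with loess. Among all 6256 genes they were 2937 and 2939 with the processed signals, and 2844 and 2860 with loess. None of the 31 differed between scan sessions by limma at an adjusted p of 0.05, where 2.64% of all genes did. All 31 lay below the lowest core histone gene, which stood at percentile 93.9 of all genes. Below HTZ1, at percentile 63.1, lay 22, so both counts are near what the percentiles give for any genes. The count below the lowest core gene was 30 with normexp, 8 with Agilent's processed signals and 4 with loess. That gene then stood at percentiles 91.1, 27.9 and 15.0.

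The HIR complex, which represses most of the core histone loci outside S phase, had 1 member above the median gene (HIR2, 0.16 ± 0.06) and 3 below. HIR1 was at -0.57 ± 0.06, HIR3 at -0.27 ± 0.12 and HPC2 at -0.24 ± 0.10. Of 5 activators, the cell cycle factors SWI4 (0.37 ± 0.12) and SWI6 (0.28 ± 0.12) were above the median gene. SPT10, which binds upstream elements of the core histone genes, was at -0.87 ± 0.10 and MBP1 at -0.39 ± 0.08, both below it. SPT21, a partner of Spt10, was not called at -0.09 ± 0.14.

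The 6 chaperones of H2A-H2B and H2A.Z were all above the median gene, with a median level of 1.47. NHP6A (2.53 ± 0.02) and NHP6B (1.77 ± 0.05) encode DNA-bending partners of the FACT complex. The FACT subunit genes SPT16 and POB3 were at 1.48 ± 0.12 and 1.05 ± 0.10. NAP1, a chaperone that also carries H2A-H2B into the nucleus, was at 1.47 ± 0.02, and CHZ1, a chaperone with a preference for H2A.Z, at 0.57 ± 0.07, beside 0.56 ± 0.04 for HTZ1 itself. All 6 were called with normexp as well, 4 with Agilent's processed signals and 3 with loess. Of all 6256 genes, 3005, 2937 and 2844 were called higher in these settings, so the count with loess is near that share.

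The 12 genes for H3-H4 chaperones and assembly factors were divided, with 6 above the median gene, 5 below and 1 not called. SPT6, an elongation factor that binds H3, was the highest at 2.44 ± 0.08, followed by HAT1, a histone acetyltransferase, at 1.21 ± 0.05. The chaperone gene ASF1 was at 0.15 ± 0.07. RTT109, an H3 acetyltransferase, was the lowest at -1.48 ± 0.06, and its partner VPS75 was not called at -0.04 ± 0.07. The subunits of the CAF-1 assembly complex were at 0.13 ± 0.04 (CAC2), -0.70 ± 0.13 (RLF2) and -1.27 ± 0.14 (MSI1).

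CSE4, the H3 variant of the centromere, was at -0.65 ± 0.03, and SCM3, its chaperone, was the lowest of the list at -1.84 ± 0.14. RAD53 and PSH1, which take part in the removal of surplus histones, were at -0.63 ± 0.04 and -0.88 ± 0.12. All 4 were below the median gene.

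Neighbouring genes were looked up in the RefSeq order of assembly R64, a description added after the levels were known. The 8 core genes formed 4 divergent pairs there. The 12 genes that flank the histone genes on their outer sides, or flank HTZ1 and HHO1, had levels between -2.59 and 3.44 with a median of 0.84. On 5 of 5 arrays 10 of the 12 were below the histone gene beside them. The core genes stood at percentiles 93.9 to 97.2 of all genes, HHO1 at 79.2 and HTZ1 at 63.1. Most genes of any kind thus lie below them, and the count is not a trait of the flanking genes. CRF1, next to HTB1, was 6.96 below it, and FLR1, next to HHF1, was 4.67 below. IPP1, the inorganic pyrophosphatase gene next to HHT1, came to 3.44 ± 0.11, and ADK1, the adenylate kinase gene next to HTA1, to 3.18 ± 0.03. The exceptions were PLB3, 0.30 above its neighbour HTZ1, and NAN1, 1.08 above its neighbour HHO1. Both are transcribed away from the histone gene beside them. Flanking genes were not recomputed under other processing.

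Genes with the most similar profile were ranked by the root mean square difference of the level over 5 arrays, among 5677 genes well above background in both channels on every array. Closest to the mean of the 8 core genes (3.74 ± 0.06) were BAT1, a mitochondrial branched-chain aminotransferase gene, at 0.04, CUP5 (VMA3 in RefSeq), which encodes a subunit of the vacuolar ATPase, at 0.05, and ERG28, of ergosterol synthesis, at 0.05. Closest to HTZ1 were MRPL11, of the mitochondrial ribosome, and TFB1, of the transcription factor TFIIH, both at 0.02, and MYO5, a type I myosin gene, at 0.03. For HHO1 they were TMA22, GET4 and FRQ1, each at 0.04. With 1 group and 5 arrays this likeness is mainly one of level.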

How the data were processed

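Total RNA (Cy3) and genomic DNA (Cy5) were hybridized on 5 arrays. Per the file headers, the deposited scanner files hold spot and background intensity made with Agilent Feature Extraction 10.1.1.1, with flags for outlier, saturated and well-above-background spots. The authors also deposited a table of uncentred log2 Cy3 over Cy5 ratios, used as an alternative. Per array, 89.4 to 99.6% of its values matched ratios made without background subtraction. For each channel the median of the local background was taken off the median of the spot, control spots and spots with an outlier flag (1.41 to 3.81% of gene spots per array) were left out, log2 Cy3 over Cy5 was averaged over the spots of a gene, and quantile normalization between arrays used limma 3.58.1 (R 4.3.3), after which levels were set relative to the median gene. Subtraction before division leaves any trend of the ratio with brightness in the levels, and loess removes it. Loess assumes that the samples themselves give no such trend. RNA set against genomic DNA does not meet this, since brightness includes the RNA signal. Loess can thus remove part of the differences in RNA level as well, which cannot be separated from a dye effect without dye swaps. Levels and scan sessions were tested with limma on all 6256 genes, with Benjamini-Hochberg adjustment at 0.05. Gene pairs were compared by an exact sign-flip permutation test over 32 sign patterns. A gene was well above background where at least 50% of its 7 spots were, and the normexp offset was 50.

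The histone genes, the list of regulators and chaperones and the tests were chosen with earlier results of these data known. The text names all 10 histone genes, the 31 listed genes by their lists, the 3 closest genes per profile, and flanking genes chosen after their values were seen. CHZ1, PSH1, TMA22 and GET4 are on the arrays by systematic name only and take their names from RefSeq (assembly R64), which matched 5756 of 6256 genes. For the genome build behind the probes, the sources used here give none. The planned look at probe, promoter and protein sequences was not run, since no sequences were used here. The number of arrays limits the precision. Alternatives were other background corrections, normalizations, spot filters and divisors, the authors' table, each array left out, each session alone, and the slide as a random block.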

Additional observations from a re-analysis of the deposited data

Results flagged for a closer look

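HTZ1 minus HTA2 was -2.45 on array 4 and between -2.64 and -2.62 on the other 4 arrays, a gap to the nearest array that passes Dixon's criterion for 5 values. It was the only one of 71 sets of 5 values examined, among levels, signals and differences of the histone genes, in which 1 array stood so far apart, and chance picks out about 1 in 20. HTA2 had its lowest level on array 4, at 3.04, and HTZ1 was at 0.58 there. The gap is one of the quantile-normalized levels. Before normalization the log2 ratios were -2.44 for HTZ1 and 0.08 for HTA2 on array 4, against -2.12 and 0.43 on array 1. Array 4 was thus near array 1 in this difference, and the gap depends on the scaling.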

How the results depend on the processing

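The text's levels rest on subtracted background and no correction for dye or brightness. With Agilent's processed signals, HTA1 minus HTA2 was -0.16, HTB1 minus HTB2 -0.28, HHF1 minus HHF2 -0.85 and HHT2 minus HHF2 -0.034, and the levels of HHF1 and HTZ1 were -0.62 and -0.67. With loess within arrays, HTA1 minus HTA2 was -0.17, HTB1 minus HTB2 -0.20 and HHF1 minus HHF2 -0.81, the levels of HHF1, HHF2 and HTZ1 were -0.90, -0.090 and -1.09, and 5 histone genes were above the median gene and 2 below, in place of 10 and 0. Among all 6256 genes, loess gave 2844 above and 2860 below. With normexp, HHF1 minus HHF2 was -0.42 and the HTZ1 level -0.020. With Cy3 alone, HHT1 minus HHF1 was -0.25. The cause of these changes was not tested.

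HTZ1 minus HTA1 and HTZ1 minus HTA2 kept their sign under all 11 alternatives, at -1.12 and -1.28 with the processed signals. The session difference of HTB1 was 0.18 with the processed signals, 0.017 with median centring and 0.045 with loess, and that of HHT1 0.11 with the processed signals and 0.051 with median centring. Using only spots well above background 2 histone genes differed between sessions (37.5% of all genes), and with the slide as a random block 6 did (35.8%), in place of 0 (2.64%). The genes called between sessions among all genes numbered 165 in the text's fit and 0 to 2242 under the alternatives.

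Leaving out each array in turn, HTA1 minus HTA2 was 0.36 to 0.43, HTB1 minus HTB2 0.46 to 0.50, HHT1 minus HHT2 0.42 to 0.45 and HHF1 minus HHF2 0.07 to 0.09, and 10 histone genes stayed above the median gene. Differences between genes were taken within arrays. No paired analysis was possible because, for pairing groups of arrays by replicate number, the arrays form only 1 group. All spots of the histone genes were marked well above background, but as normexp shows, the background step still moved the H4 difference and the HTZ1 level.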
